A study of Mus musculus with 12 samples.

Results

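The genes described here set the pace at which a cell leaves G1 and enters S phase: the D cyclins Ccnd1, Ccnd2 and Ccnd3, their kinases Cdk4 and Cdk6, the pocket protein Rb1, and the kinase inhibitors Cdkn1b (p27) and Cdkn2c (p18). How open the chromatin of these genes is was read with Omni-ATAC-seq, an assay whose transposase cuts and tags open DNA, in mouse splenic germinal center B cells with and without Pbrm1, a subunit of the PBAF chromatin remodeling complex. A peak was taken as a member when its midpoint had 1 of the 8 genes as the nearest protein-coding RefSeq gene span within 50 kb. This gave 86 of the 68689 peaks of the deposited count table, each 501 bp long. Cdk6 had 29 peaks, Ccnd3 18, Rb1 13, Ccnd2 7, Cdkn1b 7, Ccnd1 6, Cdkn2c 5 and Cdk4 1. Of the 86 peaks, 9 lay within 1 kb of an end of their gene, 63 elsewhere inside it and 14 outside it. The farthest member peak lay 21630 bp from its gene, at Cdkn1b, and the nearest peak beyond the 50 kb limit lay 53870 bp from Cdk4. A total of 2 Rb1 peaks also lie over Lpar6, a receptor gene nested inside Rb1, and cannot be given to 1 of the genes.

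Libraries came from the spleens of C57BL/6 mice of 8-10 weeks. WT mice were Pbrm1+/+ and HOMO mice Pbrm1-/-, and from each genotype the 2 germinal center populations that the labels call CB and CC were profiled, with 3 libraries in each of the 4 groups. The labels do not say that the libraries of a group came from separate mice, so p-values measure the spread between these libraries only.

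D-type cyclins bind Cdk4 or Cdk6, and the active kinase phosphorylates Rb1, which releases E2F factors that turn on S phase genes. Cdkn2c binds Cdk4 and Cdk6 directly, and Cdkn1b acts mainly on cyclin-bound Cdk2. In germinal centers Ccnd3 is the D cyclin on which the repeated divisions of dark zone cells depend, and Ccnd2 is known from B cells activated through their receptor.

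The promoters of Cdk4, Ccnd3, Cdkn1b and Cdkn2c are shown because a peak lies over each of them and their accessibility is followed below. Each sequence is the 250 bases before an annotated start, from RefSeq (GRCm38), 5′ to 3′ on the strand of the gene. Capitals mark CACGTG (the E-box bound by Myc with Max, among others) in Cdk4, GGGCGG or its reverse complement CCGCCC (the GC box) in Ccnd3 and Cdkn2c, and CCAAT (the CCAAT box) in Cdkn1b. The motif to mark was chosen gene by gene. A total of 5 of the 8 genes had an entry in the promoter table, with 7 starts.
Cdk4, chr10:127063285-127063534, plus strand: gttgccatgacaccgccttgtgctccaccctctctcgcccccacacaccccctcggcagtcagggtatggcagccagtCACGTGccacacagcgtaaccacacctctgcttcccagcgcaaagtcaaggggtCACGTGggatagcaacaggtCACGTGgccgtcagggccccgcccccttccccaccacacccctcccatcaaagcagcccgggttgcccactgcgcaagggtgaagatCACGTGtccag
Ccnd3, upstream start, chr17:47504801-47505050, plus strand: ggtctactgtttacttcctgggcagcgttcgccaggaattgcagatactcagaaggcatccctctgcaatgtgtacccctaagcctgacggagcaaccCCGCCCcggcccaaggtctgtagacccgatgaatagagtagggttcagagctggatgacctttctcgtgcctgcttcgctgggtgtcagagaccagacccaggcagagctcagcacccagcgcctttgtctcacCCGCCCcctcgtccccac
Ccnd3, downstream start, chr17:47593217-47593466, plus strand: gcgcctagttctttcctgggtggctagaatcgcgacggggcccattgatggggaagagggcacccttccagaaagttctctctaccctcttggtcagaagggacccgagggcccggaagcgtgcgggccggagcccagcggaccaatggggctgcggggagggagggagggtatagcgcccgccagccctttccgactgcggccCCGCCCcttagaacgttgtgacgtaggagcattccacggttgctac
Cdkn1b, chr6:134920151-134920400, plus strand: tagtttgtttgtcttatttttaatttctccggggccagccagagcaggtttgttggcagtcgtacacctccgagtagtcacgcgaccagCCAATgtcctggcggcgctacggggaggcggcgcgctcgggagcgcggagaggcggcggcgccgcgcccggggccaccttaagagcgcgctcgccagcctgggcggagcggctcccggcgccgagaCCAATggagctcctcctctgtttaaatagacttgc
Cdkn2c, upstream start, chr4:109666757-109667006, minus strand: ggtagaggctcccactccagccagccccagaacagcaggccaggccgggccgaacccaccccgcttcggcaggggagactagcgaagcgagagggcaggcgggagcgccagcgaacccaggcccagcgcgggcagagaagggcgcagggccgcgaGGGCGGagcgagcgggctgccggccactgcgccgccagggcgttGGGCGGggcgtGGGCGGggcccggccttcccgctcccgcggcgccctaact

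The Cdk4 promoter holds 4 CACGTG matches, beginning 172, 118, 98 and 11 bases before the start. Both strands were searched for each motif, and none of the 3 motifs overlaps another. Among 32851 promoters of the same length in the table, 6.02% held at least 1 CACGTG and 7 (0.0213%) held at least 4. The 3 GC boxes of the upstream Cdkn2c start were matched or exceeded in 8.47% of promoters, and the 2 CCAAT boxes of Cdkn1b in 10.1%. The upstream Ccnd3 start holds 2 GC boxes, where 16.7% of promoters hold 2 or more, and the downstream start 1. GC content was 42.8% at the downstream Cdkn2c start, which holds none of the motifs, and 59.6% to 77.2% at the other 6 starts, beside a median of 52.4% over all promoters. These matches describe letters in the sequence, and no binding was measured.

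Depth and composition of the libraries bear on every value. The smallest library, HOMO CC 1, held 6431354 counts and the largest, HOMO CB 3, 45590454, which is 7.09 times as many, and the first library of each HOMO group was the shallowest of its group. A member peak held between 0 and 2949 counts in a library. The peaks of Pbrm1 itself summed to 27.6 to 40.4 CPM (counts scaled to library size) in WT CB and 29.4 to 40.4 in HOMO CB, and to 28.8 to 42.9 in WT CC and 30.7 to 41.4 in HOMO CC. The sources used here do not say which part of Pbrm1 is deleted, so these peaks do not check the genotype labels. All 8 germinal center B cell marker genes had peaks, among them Bcl6. Cxcr4, which marks the dark zone, was lower in CC than in CB in HOMO (log2 fold change -0.32, adjusted p = 0.00946) and had a value of -0.16 in WT (adjusted p = 0.235). Cd83, which marks the light zone, had values of 0.32 in HOMO (adjusted p = 0.0461) and 0.17 in WT (adjusted p = 0.359). Cd86, the other light zone marker in the list, had a value of -0.07 in both genotypes (adjusted p = 0.804 in HOMO and 0.76 in WT). Of the markers of other cells, Cd3g, Cd8a, Lyz2, Gata1 and Hbb-bs had no peak, and others of the same lists did. Natural killer markers summed to 115 to 155 CPM over the libraries, and plasma cell markers to 122 to 160. Klf1, the erythroid marker with peaks, held 48.5 to 64.1 CPM. T cell and myeloid values are given below. Whether other cells were present was not tested.

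Loss of Pbrm1 went with higher accessibility at Ccnd3 in both populations and with lower accessibility beside Cdkn2c, at a pair of sites called in CB, 1 of them also in CC. Counts were tested with edgeR's quasi-likelihood test and Benjamini-Hochberg adjustment over all peaks, and a peak was called at an adjusted p under 0.05. In CB, 2 member peaks rose and 2 fell, which is 4.65% of the 86 against 4.63% of all peaks (0.779% higher and 3.85% lower). In CC, 3 rose and 2 fell, which is 5.81% against 2.75% of all peaks (0.578% higher and 2.17% lower). The share in CB is that of the whole table, so the count as such is no result about these genes. Each of the CB calls was lost without HOMO CB 2 (adjusted p = 0.0576 to 0.119). The CC count fell to 0 without HOMO CC 2, without HOMO CC 3 or without both WT libraries numbered 2. The rises were all in Ccnd3 and the falls at Cdkn2c and Cdkn1b, whereas over all peaks 2643 fell and 535 rose in CB. The median log2 fold change of the members was 0.03 in both CB and CC, beside 0.01 and 0.02 over all peaks.

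**Figure D1:**
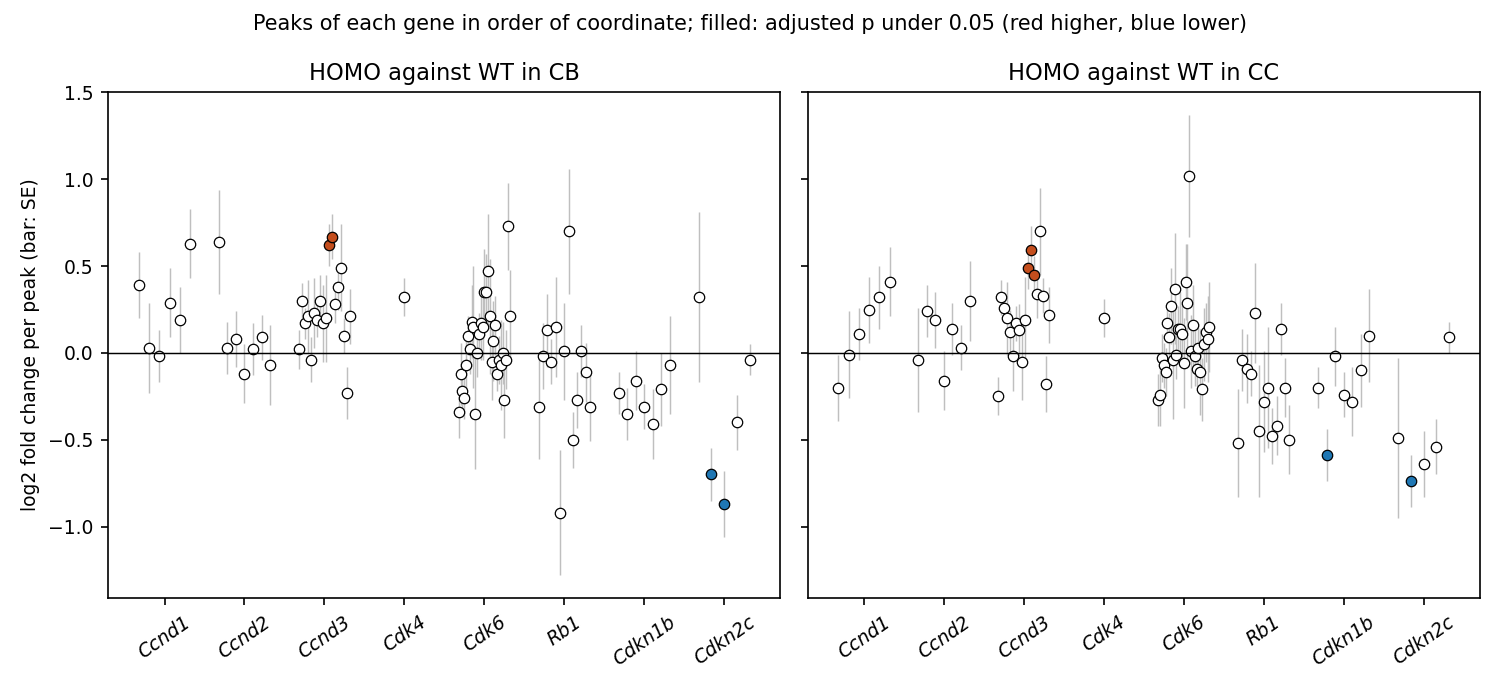
Log2 fold change (vertical axis) of each of the 86 peaks between HOMO and WT, in CB (left) and CC (right), grouped by gene on the horizontal axis and ordered by coordinate within a gene. Points are edgeR estimates with their standard errors, and filled points passed an adjusted p of 0.05. Filled red points lie in Ccnd3 only, and filled blue points in Cdkn2c and, in CC, Cdkn1b.

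Ccnd3, the D cyclin of dividing germinal center B cells, spans chr17:47505051-47599689 (GRCm38). The CPM summed over its 18 peaks was 354, 361 and 336 in the WT CB libraries 1 to 3 and 420, 418 and 429 in the HOMO CB libraries. It was 332, 330 and 331 in WT CC and 397, 379 and 402 in HOMO CC. Every HOMO library stood above every WT library of its population. In a test over the 14353 genes with peaks, the summed counts of CB gave a log2 fold change of 0.27 (SE 0.05, adjusted p = 0.00873). The value for CC was 0.25 (SE 0.05, adjusted p = 0.0189). In CB the call held in all 21 alternative settings, with values of 0.21 to 0.29. In CC it was lost without WT CC 1 (adjusted p = 0.0817), WT CC 2 (0.0607), HOMO CC 2 (0.0826), HOMO CC 3 (0.0909) or both WT libraries numbered 2 (0.0802). Of the 18 peaks, 2 were called in CB and 3 in CC. The value lay above 0 at 16 of the 18 and below 0 at 2 in CB. In CC it lay above 0 at 14 and below 0 at 4. The median over the 18 peaks was 0.21 in both populations. Peaks of a gene were read in the same libraries, so counts by sign, here and at the genes below, are a description.

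**Figure D2:**
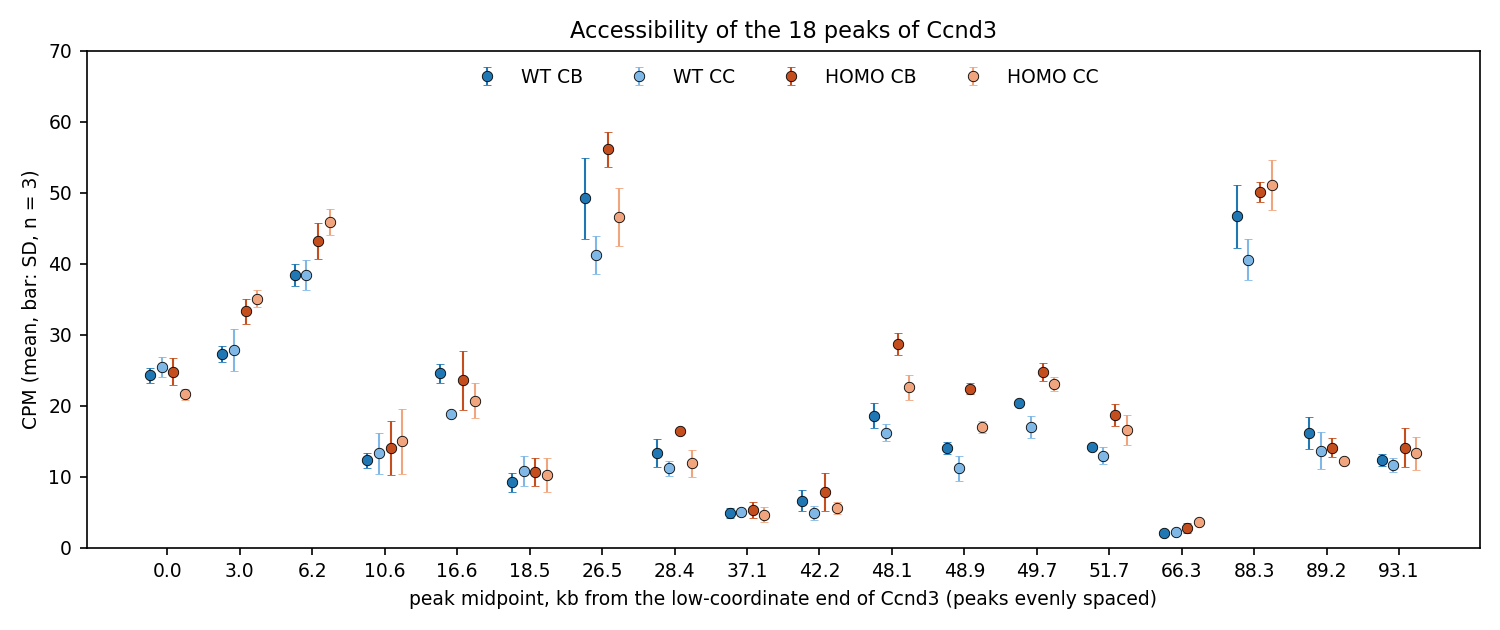
Mean CPM with SD (n = 3 libraries) of the 18 Ccnd3 peaks in the 4 groups, in order of their distance in kb from the low-coordinate end of the gene (peaks evenly spaced). The 3 peaks at 48.1 to 49.7 kb show the HOMO groups above the WT groups, and the peak at 0.0 kb, over the upstream start, does not.

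The called peaks of Ccnd3 were 3 neighbours inside the gene, 48.1, 48.9 and 49.7 kb from its upstream start and 40.4, 39.5 and 38.7 kb before its downstream start. At the first (chr17:47552855-47553355) CPM was 16.2, 17.4 and 15.0 in WT CC and 20.7, 22.8 and 24.2 in HOMO CC. The groups did not overlap, and the log2 fold change was 0.49 (SE 0.12, adjusted p = 0.0309), beside 0.62 (SE 0.12, adjusted p = 0.0069) in CB, where the libraries held 20.6, 17.2 and 18.1 against 29.6, 29.6 and 27.0 CPM. At the second (chr17:47553725-47554225) CPM was 9.16, 12.6 and 11.7 in WT CC and 18.0, 16.7 and 16.3 in HOMO CC, without overlap (0.59, SE 0.14, adjusted p = 0.0243). In CB that site held 15.0, 13.9 and 13.3 CPM against 23.3, 22.1 and 21.8 (0.67, SE 0.13, adjusted p = 0.00819). The HOMO CB libraries were the highest of the 4 groups at both sites. The third site (chr17:47554513-47555013) held 17.1, 18.5 and 15.5 CPM in WT CC and 21.9, 23.7 and 23.6 in HOMO CC, again without overlap (0.45, SE 0.11, adjusted p = 0.0374). In CB it held 20.5, 19.9 and 20.9 against 23.3, 24.9 and 25.8 (0.28, SE 0.11, adjusted p = 0.173) and was not called.

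These calls rest on few libraries. In CB both calls were lost without HOMO CB 2, with an adjusted p of 0.0614 at the first site and 0.0576 at the second. In CC the first was lost without any of WT CC 1 to 3, HOMO CC 2 or HOMO CC 3 (adjusted p = 0.0594 to 0.169). The second was lost without WT CC 1 or 3 or HOMO CC 2 or 3 (0.0501 to 0.139), and the third without WT CB 1, any of WT CC 1 to 3, HOMO CB 2, HOMO CC 2 or HOMO CC 3 (0.0523 to 0.207). Each of the 3 CC calls was also lost without both WT libraries numbered 2 (0.0565 to 0.0698).

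Between genotypes, the start sites of Ccnd3 showed no called change in edgeR without a replicate block or covariate. The peak over the upstream start (chr17:47504778-47505278) held 25.3, 23.2 and 24.4 CPM in WT CB and 26.2, 25.5 and 22.6 in HOMO CB, with overlap. In CC it held 25.9, 23.9 and 26.6 CPM in WT and 22.5, 21.2 and 21.1 in HOMO, lower without overlap, and missed the threshold (-0.25, SE 0.11, adjusted p = 0.247). The peak over the downstream start (chr17:47593104-47593604) held 41.8, 50.4 and 47.9 CPM in WT CB and 51.3, 48.6 and 50.4 in HOMO CB. In CC the downstream start held 38.0, 40.0 and 43.8 CPM in WT and 52.8, 47.1 and 53.4 in HOMO, without overlap, and missed the threshold (0.33, SE 0.10, adjusted p = 0.0709). With the replicate block it was called in CC (0.32, SE 0.09, adjusted p = 0.0125). The most accessible Ccnd3 peak, 26.5 kb into the gene (chr17:47531286-47531786), held 53.3, 51.7 and 42.7 CPM in WT CB and 58.5, 56.4 and 53.5 in HOMO CB (0.19, SE 0.10, adjusted p = 0.306).

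The summed peaks of the 8 germinal center B cell marker genes moved with Ccnd3: 1660 to 1720 CPM in WT CB against 1830 to 2000 in HOMO CB, and 1590 to 1620 in WT CC against 1730 to 1950 in HOMO CC. Their part in the Ccnd3 result was not tested. Plasma cell markers went the other way, at 136 to 160 CPM in WT CB and 127 to 135 in HOMO CB. In sorted bulk cells, more cells of a state and more accessibility per cell cannot be told apart.

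Of the other D cyclins, Ccnd1 was called between genotypes in CB and Ccnd2 in neither population. Ccnd1 (chr7:144929931-144939831), the D cyclin that many non-lymphoid cells use, had summed CPM of 36.2, 40.8 and 35.8 in WT CB and 48.2, 43.9 and 46.5 in HOMO CB. The groups did not overlap and the gene was called in CB (0.30, SE 0.08, adjusted p = 0.0387), while in CC the value was 0.22 (SE 0.08, adjusted p = 0.129). The CC value of Ccnd1 passed with library size as a covariate (adjusted p = 0.0353) and with the replicate block (0.032). With Ccnd3 and Cdk4, Ccnd1 made 3 of 8 genes that rose in CB (37.5%), where 7.28% of all genes were called, 2.48% as higher. In CC only Ccnd3 was called among the 8 (12.5%), where 4.31% of all genes were, 1.09% as higher. The Ccnd1 call in CB was lost without WT CB 1 (adjusted p = 0.139), WT CB 3 (0.109), HOMO CB 1 (0.0852), HOMO CB 2 (0.0948), HOMO CB 3 (0.107) or HOMO CC 2 (0.0526), without both HOMO libraries numbered 1 (0.0749) or both WT libraries numbered 2 (0.0569), and when scaled by the peak table (0.0829). Ccnd2 (chr6:127125162-127152188) had groups that overlapped in both populations, with a CB value of 0.11 (SE 0.08, adjusted p = 0.388) and a CC value of 0.12 (SE 0.07, adjusted p = 0.358).

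Of Cdk4 and Cdk6, the kinases that the D cyclins activate, the gene test between genotypes called Cdk4 in CB and Cdk6 in neither population. These genes were not tested against each other. Cdk4 (chr10:127063535-127067288) had 1 peak, over the promoter with the 4 E-boxes (chr10:127063046-127063546). Its CPM was 45.8, 49.8 and 62.5 in WT CB and 67.3, 64.3 and 66.1 in HOMO CB. The HOMO CB libraries lay close together and above all WT CB libraries, of which WT CB 3 was close to them. As a peak it missed the threshold (0.32, SE 0.11, adjusted p = 0.108), and as a gene among genes it passed (0.37, SE 0.10, adjusted p = 0.0295). The same counts entered both tests, which differ in the library scaling and in the number of features adjusted over. With the scaling of the peak table the gene value was not called (adjusted p = 0.0804). It was also lost without WT CB 1 (0.147), WT CB 2 (0.0766) or any of HOMO CB 1 to 3 (0.056, 0.11 and 0.0794), without both HOMO libraries numbered 1 (0.0542) or both WT libraries numbered 2 (0.104). In CC the peak held 49.1, 51.7 and 61.5 CPM in WT and 57.4, 61.1 and 67.6 in HOMO, the groups overlapped, and the gene value was 0.22 (SE 0.10, adjusted p = 0.203). That gene value passed with the replicate block (adjusted p = 0.0361).

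Cdk6 (chr5:3341004-3531008) had the most peaks, and edgeR without a replicate block called neither the gene nor a peak of it in any comparison. Its summed CPM was 403, 373 and 357 in WT CB, 358, 411 and 381 in HOMO CB, 364, 372 and 382 in WT CC and 358, 394 and 386 in HOMO CC. All 4 groups overlapped, with a genotype value for CB of 0.02 (SE 0.07, adjusted p = 0.865) and for CC of 0.03 (SE 0.07, adjusted p = 0.844). Its peaks spread from -0.35 to 0.73 in CB, with 16 above 0 and 13 below, and from -0.27 to 1.02 in CC, with 17 above 0 and 12 below. The most accessible Cdk6 peak lay 153.2 kb into the gene (chr5:3493919-3494419), at 48.5, 47.0 and 44.6 CPM in WT CB and 40.1, 45.6 and 43.0 in HOMO CB, which overlapped (-0.12, SE 0.10, adjusted p = 0.546). The peak over its annotated start (chr5:3343628-3344128), named here after its values were seen, held 26.2, 22.2 and 23.4 CPM in WT CB and 17.7, 22.3 and 19.5 in HOMO CB, with overlap (-0.26, SE 0.12, adjusted p = 0.242). Its next neighbour inside the gene (chr5:3344242-3344742) had mean values of 21.6 CPM in WT CB and 20.8 in HOMO CB (-0.07, SE 0.14, adjusted p = 0.836). The smallest adjusted p of a Cdk6 peak in CB was 0.0962, at a weak site (chr5:3512550-3513050) with 3.56, 2.41 and 2.26 CPM in WT and 5.63, 4.29 and 4.17 in HOMO.

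**Figure D3:**
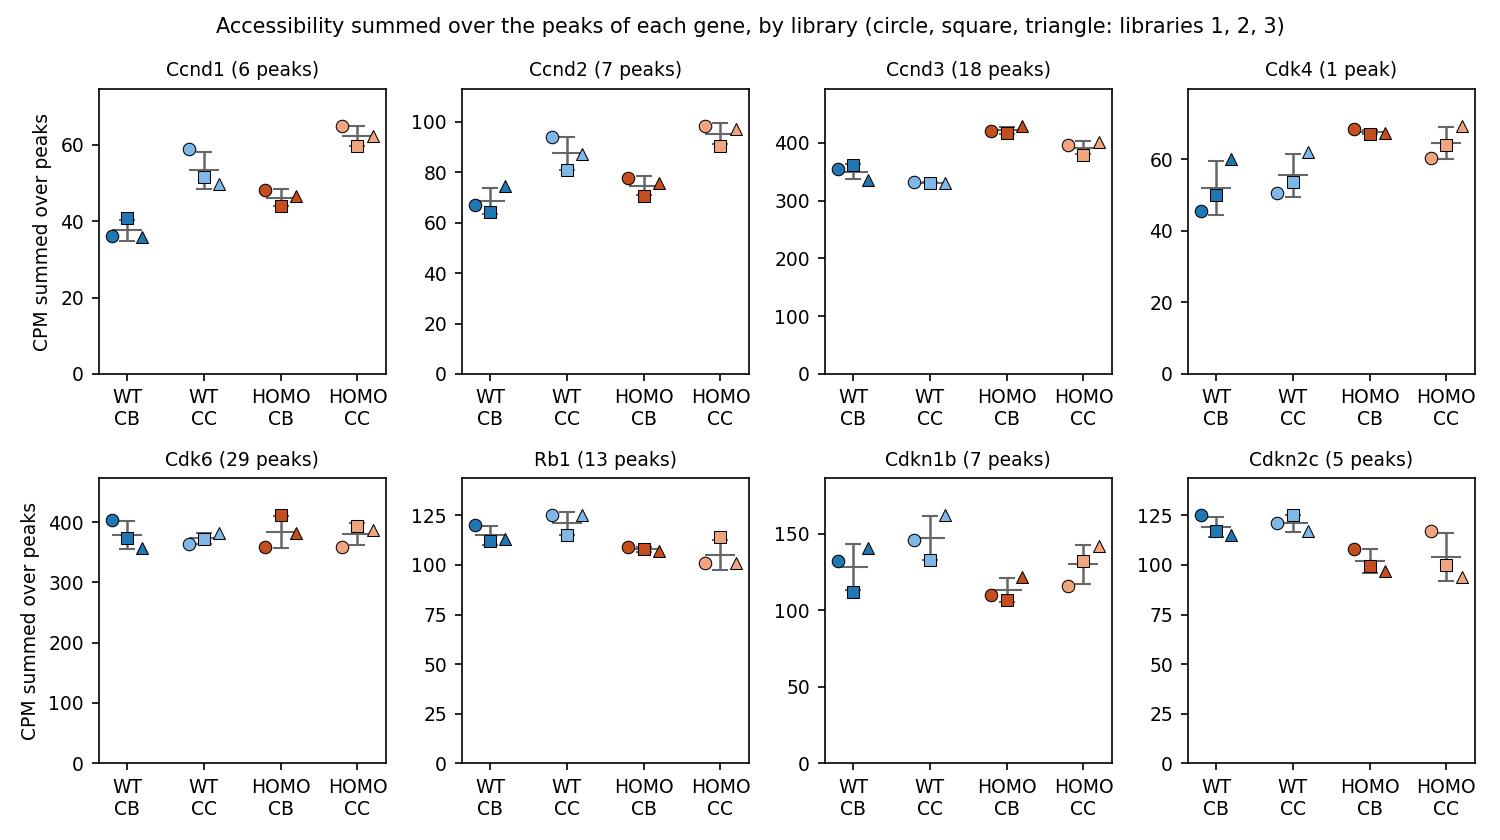
CPM summed over the peaks of each gene (vertical axis from 0) in every library, for the 4 groups, with the mean and SD (n = 3). Ccnd3 is higher in HOMO than in WT in both populations, Ccnd1 and Ccnd2 are higher in CC than in CB, and Cdk6 overlaps between all groups.

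Cdkn2c, an inhibitor of Cdk4 and Cdk6 that restrains the division of lymphocytes, was lower in HOMO at a pair of adjoining sites. They lie 3.68 and 3.17 kb beyond the end of Cdkn2c (chr4:109660876-109666756), at an end of the long noncoding gene 9630013D21Rik, to which they are nearer. At the farther site (chr4:109656947-109657447) CPM was 19.0, 18.0 and 17.1 in WT CB and 13.4, 10.8 and 10.0 in HOMO CB. In CC it was 16.7, 18.9 and 20.5 in WT and 13.6, 10.4 and 10.5 in HOMO. The groups did not overlap in either population, and the shallow first libraries were the highest of each HOMO group. In CB the log2 fold change was -0.70 (SE 0.15, adjusted p = 0.0116). In CC it was -0.74 (SE 0.15, adjusted p = 0.0139). The nearer site (chr4:109657455-109657955) held 20.8, 16.4 and 14.9 CPM in WT CB and 13.2, 8.68 and 7.94 in HOMO CB, without overlap (-0.87, SE 0.19, adjusted p = 0.0145). In CC it held 14.7, 19.7 and 14.8 against 13.0, 9.68 and 9.64 CPM, also without overlap, and missed the threshold (-0.64, SE 0.19, adjusted p = 0.0766).

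The farther call in CB was lost without WT CB 1 (adjusted p = 0.0698), HOMO CB 2 (0.0915) or HOMO CB 3 (0.0837), and the nearer without the same libraries (0.107, 0.119 and 0.10). The farther call in CC was lost without HOMO CC 2 (0.134), HOMO CC 3 (0.0835) or both WT libraries numbered 2 (0.0658). The starts of Cdkn2c differed from each other. The peak over the upstream start (chr4:109666585-109667085), the most accessible of the gene, held 56.2, 53.8 and 63.2 CPM in WT CB and 53.7, 55.0 and 59.7 in HOMO CB. These groups overlapped (-0.04, SE 0.09, adjusted p = 0.846), as did those in CC (0.09, SE 0.09, adjusted p = 0.649). The peak that overlaps the downstream promoter (chr4:109665503-109666003), named here after its values were seen, held 29.0, 27.7 and 23.7 CPM in WT CB and 26.3, 19.4 and 16.6 in HOMO CB, with overlap (-0.40, SE 0.16, adjusted p = 0.167). In CC it held 33.3, 31.4 and 25.5 CPM in WT and 25.4, 20.3 and 17.5 in HOMO, lower without overlap, and missed the threshold (-0.54, SE 0.16, adjusted p = 0.0777). Summed over its 5 peaks, Cdkn2c missed the threshold for CB (-0.23, SE 0.08, adjusted p = 0.0667) and likewise for CC (-0.24, SE 0.08, adjusted p = 0.0797). Without both HOMO libraries numbered 1 the sum passed, at -0.29 (adjusted p = 0.0134) in CB and -0.33 (adjusted p = 0.00837) in CC. It passed in 7 of 21 alternative settings in CB and in 4 in CC. They included library size as a covariate (0.0227 and 0.0126) and the replicate block (0.00602 and 0.00536). In CB they also included DESeq2 (0.0454) and peak-table scaling (0.0197).

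Cdkn1b, the inhibitor known for holding cells in quiescence, had 1 called peak, 1.2 kb inside the gene (chr6:134921352-134921852). It held 15.1, 13.5 and 14.7 CPM in WT CC and 10.9, 8.64 and 9.67 in HOMO CC, without overlap (-0.59, SE 0.15, adjusted p = 0.0419). In CB it held 12.9, 10.1 and 11.2 against 9.95, 8.22 and 9.13, also without overlap and not called (-0.35, SE 0.15, adjusted p = 0.206). The CC call was lost without WT CB 1, any of WT CC 1 to 3, HOMO CB 2, HOMO CB 3, HOMO CC 2 or HOMO CC 3 (adjusted p = 0.0536 to 0.265) and without both WT libraries numbered 2 (0.0883). The value lay below 0 at 7 of the 7 Cdkn1b peaks in CB and at 6 in CC, while the gene sum was not called (-0.19, SE 0.09, adjusted p = 0.234, and -0.17, SE 0.09, adjusted p = 0.302). In CB the sum passed with library size as a covariate (adjusted p = 0.0285) and with the replicate block (0.0325). The promoter peak with the CCAAT boxes (chr6:134920089-134920589) held 34.4, 29.8 and 38.9 CPM in WT CB and 26.1, 30.0 and 31.5 in HOMO CB, with overlap (-0.23, SE 0.12, adjusted p = 0.286). The strongest Cdkn1b peak outside the gene, beside the noncoding gene Lockd (chr6:134928419-134928919), held 33.3, 26.3 and 44.8 CPM in WT CB and 27.4, 27.0 and 36.3 in HOMO CB (-0.21, SE 0.21, adjusted p = 0.639).

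Rb1 (chr14:73192858-73325951), the pocket protein that holds E2F factors in check, lies on the chromosome of Pbrm1 at a distance of 42.1 Mb. Its summed CPM was 120, 112 and 113 in WT CB and 109, 108 and 107 in HOMO CB, and 125, 115 and 125 in WT CC and 101, 114 and 101 in HOMO CC. The HOMO libraries were the lower in both populations without overlap, and neither difference was called (-0.09, SE 0.06, adjusted p = 0.42, and -0.20, SE 0.06, adjusted p = 0.0866). In CC the Rb1 sum passed with library size as a covariate (adjusted p = 0.0358) and with the replicate block (0.0245). In CC 11 of its 13 peaks had a value below 0. The peak at its promoter end (chr14:73325650-73326150) held 25.2, 28.5 and 34.6 CPM in WT CC and 21.4, 21.1 and 23.6 in HOMO CC (-0.42, SE 0.17, adjusted p = 0.186). The most accessible other peak (chr14:73238345-73238845), which Rb1 shares with Lpar6, held 20.5, 19.6 and 18.4 CPM in WT CC and 18.5, 19.4 and 16.0 in HOMO CC, with overlap (-0.12, SE 0.13, adjusted p = 0.701).

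**Figure D4:**
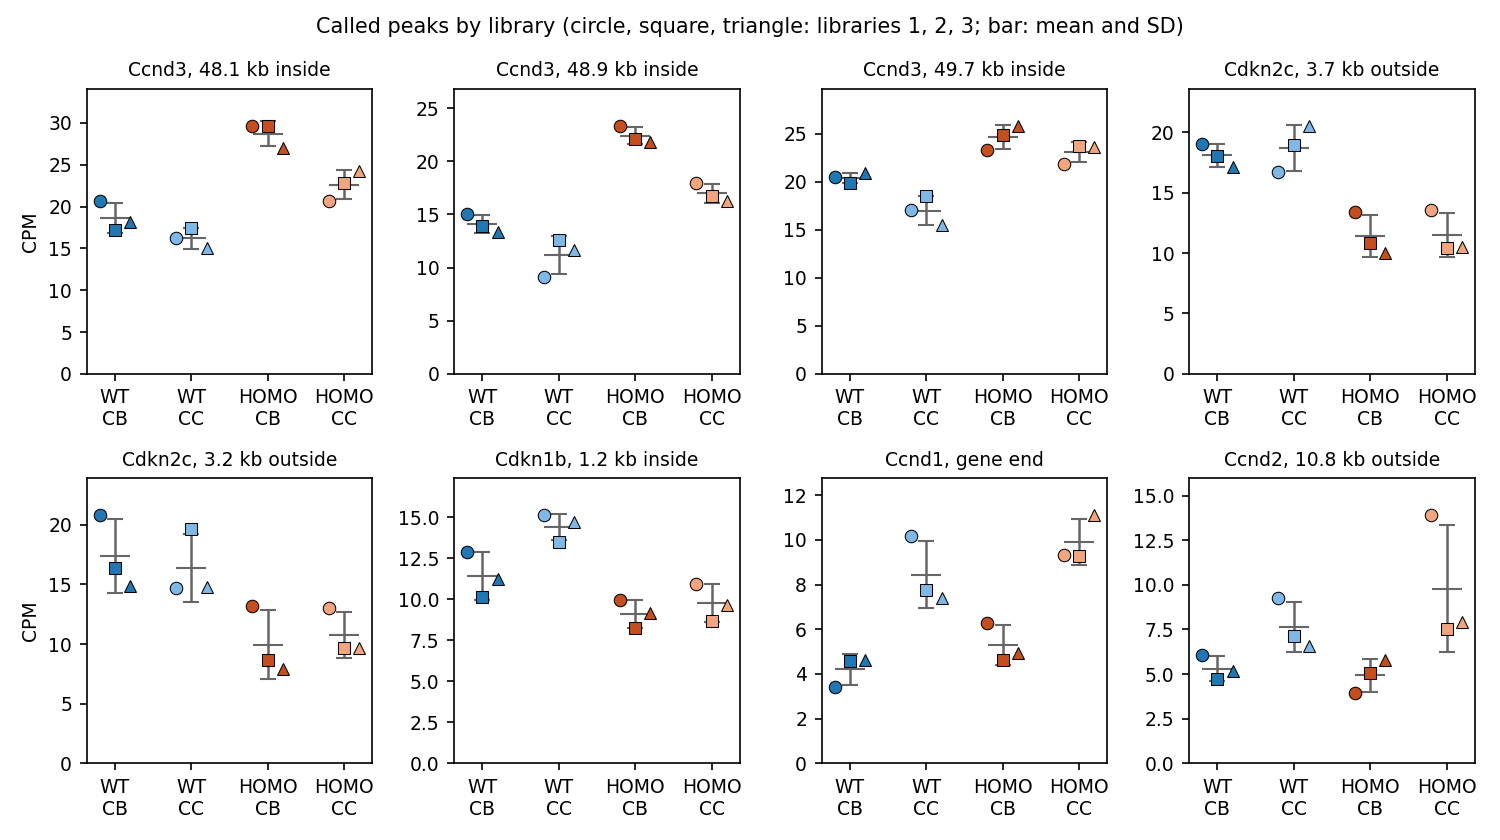
CPM in every library (vertical axis from 0; mean and SD, n = 3) at 8 called peaks, named by gene and by distance in kb inside or outside it. HOMO libraries lie above WT at the 3 Ccnd3 sites and below WT at the Cdkn2c and Cdkn1b sites, and CC libraries lie above CB at the Ccnd1 and Ccnd2 sites.

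Gene-end peaks, the class with the largest called share between genotypes, had higher medians among the members than in the whole table. Over all 15780 gene-end peaks at genes the median was -0.11 in CB and 9.45% were called, and in CC it was -0.07 and 5.79%. The 9 gene-end peaks of the members had medians of 0.02 and 0.03. Without a replicate block or covariate, edgeR called 0 of the 9 in either population. With the block it called the Cdk4 peak in CB (0.32, SE 0.08, adjusted p = 0.00806). It also called the peak at the promoter end of Rb1 in CC (-0.42, SE 0.11, adjusted p = 0.0101). That fit called 13.2% of all peaks in CB and 10.4% in CC. The 63 peaks inside the genes had medians of 0.10 in CB and 0.08 in CC, beside 0.05 and 0.06 over all 32050 inside peaks. With 9 peaks at 8 genes this is a description of these genes only.

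Whether loss of Pbrm1 acted differently in CC and in CB was tested as a difference of the 2 effects. edgeR called 0 of the 86 peaks, as it called 0% of all peaks, and 1 of the 86 had an unadjusted p under 0.05, beside 1.18% of all peaks. DESeq2 also called 0 of the 86. The peak with that p lies inside Ccnd1 (chr7:144931697-144932197), where the value was 0.39 in CB and -0.20 in CC (difference -0.59, SE 0.27, adjusted p = 1.0). A low Rb1 peak (chr14:73303108-73303608) had the largest difference of those named, from 0.70 to -0.20 (-0.90, SE 0.50, adjusted p = 1.0), on 0.829 to 1.96 CPM a library in CB. For the summed genes the difference ran from -0.15 (SE 0.14) at Cdk4 to 0.02 (SE 0.13) at Cdkn1b, and 0 of 8 had an unadjusted p under 0.05.

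Between the populations, Ccnd1 and Ccnd2 were more accessible in CC than in CB in both genotypes. Ccnd1 had summed CPM of 36.2, 40.8 and 35.8 in WT CB and 58.9, 51.7 and 49.7 in WT CC, and of 48.2, 43.9 and 46.5 in HOMO CB and 64.9, 59.6 and 62.4 in HOMO CC. Every CC library stood above every CB library of its genotype. The log2 fold change was 0.51 (SE 0.08, adjusted p = 0.00226) in WT and 0.43 (SE 0.08, adjusted p = 0.00456) in HOMO, and both calls held in all 21 alternative settings. Ccnd2 had 66.9, 64.4 and 74.5 CPM in WT CB and 93.9, 81.1 and 87.4 in WT CC, and 77.7, 70.5 and 75.7 in HOMO CB and 98.3, 90.5 and 97.2 in HOMO CC. Its groups did not overlap either, with values of 0.34 (SE 0.07, adjusted p = 0.0158) and 0.35 (SE 0.07, adjusted p = 0.00901). These were 2 of the 8 genes in each genotype (25%), where 3.71% of all genes were called in WT (2.71% as higher) and 4.84% in HOMO (3.15% as higher). The Ccnd2 call in WT was lost without WT CB 1 (adjusted p = 0.0793), WT CB 2 (0.0732), WT CC 1 (0.0873) or both WT libraries numbered 2 (0.102) and with the scaling of the peak table (0.0633), and the call in HOMO without HOMO CB 2 (0.0619).

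At single peaks, 1 of the 86 rose from CB to CC in WT (1.16%, against 5.43% of all peaks, 3.35% higher and 2.08% lower) and 3 rose in HOMO (3.49%, against 7.22%, 4.78% higher and 2.44% lower). Without a replicate block or covariate, edgeR called 0 member peaks as lower in either genotype. The strongest was the Ccnd1 peak at the high-coordinate end of the gene (chr7:144939394-144939894). It held 3.42, 4.58 and 4.61 CPM in WT CB and 10.2, 7.76 and 7.39 in WT CC, and 6.29, 4.61 and 4.93 in HOMO CB and 9.32, 9.27 and 11.1 in HOMO CC. CC was about 2-fold higher without overlap, at 1.00 (SE 0.20, adjusted p = 0.00564) in WT and 0.96 (SE 0.19, adjusted p = 0.00414) in HOMO. The HOMO call held in all 20 settings, and the WT call was lost without WT CB 1 (adjusted p = 0.0529).

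A second Ccnd1 peak, 1.68 kb beyond that end (chr7:144941261-144941761), held 6.16, 11.2 and 13.7 CPM in HOMO CB and 17.7, 17.6 and 19.2 in HOMO CC (0.75, SE 0.18, adjusted p = 0.015). The groups did not overlap, and HOMO CB 1 was the lowest library. In WT it held 8.59, 10.2 and 9.85 CPM in CB and 14.4, 14.1 and 15.3 in CC, without overlap (0.62, SE 0.19, adjusted p = 0.0575). The HOMO call was lost without HOMO CB 2 (0.0503), HOMO CC 2 (0.0552) or HOMO CC 3 (0.0579). The third called peak lay 10.8 kb beyond Ccnd2 (chr6:127162761-127163261), inside the long noncoding gene 9330179D12Rik. It held 3.93, 5.07 and 5.78 CPM in HOMO CB and 13.9, 7.52 and 7.93 in HOMO CC (0.88, SE 0.23, adjusted p = 0.0215), with HOMO CC 1 far above the other CC libraries. The call was lost without HOMO CC 1 (0.60, adjusted p = 0.0911), HOMO CB 1 (0.0683), HOMO CB 2 (0.077) or both HOMO libraries numbered 1 (0.51, adjusted p = 0.193). In WT the value was 0.50 (SE 0.23, adjusted p = 0.229).

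**Figure D5:**
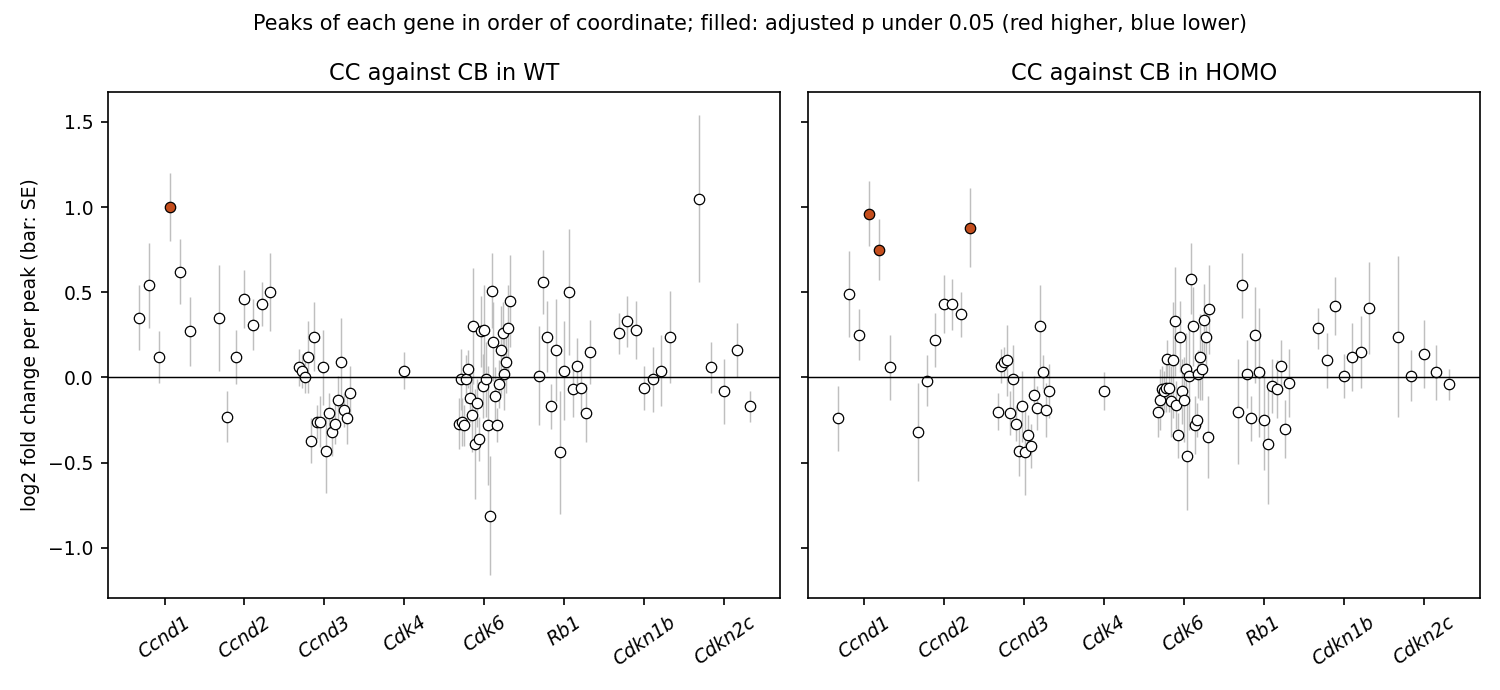
Log2 fold change (vertical axis) of each of the 86 peaks between CC and CB, in WT (left) and HOMO (right), grouped by gene on the horizontal axis and ordered by coordinate within a gene. Points are edgeR estimates with their standard errors, and filled red points, 1 in WT and 3 in HOMO, passed an adjusted p of 0.05.

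Libraries of the same number and genotype deviated together, so the CC against CB comparison was also fitted with the genotype and number as a replicate block. That fit called 22 member peaks in WT, 10 higher and 12 lower in CC (25.6%, against 22.1% of all peaks), and 18 in HOMO, 11 higher and 7 lower (20.9%, against 22.2%). The higher peaks included 2 of 6 at Ccnd1, 4 of 7 at Ccnd2, 2 of 7 at Cdkn1b and 1 of 13 at Rb1 in each genotype. At Ccnd3 6 of 18 peaks fell in WT and 5 in HOMO, and 0 rose by this fit. At Cdk6 1 peak rose and 5 fell in WT, and 2 rose and 2 fell in HOMO. Of the summed genes, where the block called 20.8% of all in WT and 22.0% in HOMO, it added Cdkn1b in WT (0.20, SE 0.04, adjusted p = 0.000372) and in HOMO (0.22, SE 0.04, adjusted p = 6.11e-05), and Ccnd3 in HOMO (-0.11, SE 0.04, adjusted p = 0.0239). Without the block these values were 0.19 (adjusted p = 0.305), 0.21 (adjusted p = 0.256) and -0.11 (adjusted p = 0.342), and Ccnd3 in WT was -0.08 (adjusted p = 0.12 with the block and 0.50 without).

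The library values show the paired pattern. At the Cdkn1b promoter each number was higher in CC than in CB, from 34.4 to 41.0, 29.8 to 38.6 and 38.9 to 44.4 CPM in WT and from 26.1 to 30.2, 30.0 to 38.8 and 31.5 to 37.6 in HOMO. The unblocked groups overlapped there (0.26, SE 0.12, adjusted p = 0.223, and 0.29, SE 0.12, adjusted p = 0.169). The Ccnd2 gene-end peak (chr6:127152328-127152828) held 18.6, 20.3 and 26.0 CPM in WT CB and 27.5, 29.4 and 30.9 in WT CC, without overlap, and missed the threshold without the block (0.43, SE 0.13, adjusted p = 0.0568). The strongest Ccnd2 peak inside the gene (chr6:127142016-127142516) held 13.8, 11.6 and 12.9 CPM in WT CB and 13.0, 9.15 and 10.8 in WT CC, with overlap (-0.23, SE 0.15, adjusted p = 0.417).

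Markers of myeloid cells moved with Ccnd1 and Ccnd2. The summed list, 2 of whose 3 genes had peaks, held 46.3 to 54.8 CPM in WT CB and 57.4 to 73.1 in WT CC, and 46.7 to 49.4 in HOMO CB and 71.1 to 74.7 in HOMO CC. Csf1r, a receptor of macrophages, rose by 1.00 in WT (adjusted p = 0.00126) and 1.28 in HOMO (adjusted p = 9.1e-05), while Itgam had values of 0.13 (adjusted p = 0.59) and 0.07 (adjusted p = 0.808) and Lyz2 had no peak. T cell markers were at 30.5 to 34.9 CPM in WT CB and 36.7 to 38.9 in WT CC, and at 27.4 to 33.4 in HOMO CB and 31.4 to 38.9 in HOMO CC, which overlapped, with Cd3g and Cd8a without a peak. The part of these in the Ccnd1 and Ccnd2 results was not tested.

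The other genes of the G1 and G1/S machinery gave a wider frame. Of 30 such genes, 29 had 168 peaks between them. Between genotypes 1 of the 168 peaks rose and 6 fell in CB (4.17%), and 1 rose and 4 fell in CC (2.98%), beside 4.63% and 2.75% of all peaks. As summed genes, E2f2 rose and Cdk2 and Cdkn2a fell in both populations, and the other 26 were not called. Over all genes 7.28% were called in CB and 4.31% in CC. E2f2, an activating E2F factor that Rb1 binds, had 291 ± 3.6 CPM in WT CB and 340 ± 7.84 in HOMO CB (SD, n = 3), a log2 fold change of 0.23 (SE 0.06, adjusted p = 0.0241), and 0.22 (SE 0.06, adjusted p = 0.0384) in CC. Cdk2, the kinase that acts with cyclin E after Cdk4 and Cdk6, fell from 30.0 ± 1.14 to 23.1 ± 0.492 CPM in CB (-0.38, SE 0.10, adjusted p = 0.0307) and by 0.44 on the log2 scale in CC (SE 0.10, adjusted p = 0.025). Cdkn2a, which encodes the inhibitor p16 and the p53 activator ARF, fell from 48.1 ± 3.63 to 33.5 ± 0.314 CPM in CB (-0.53, SE 0.09, adjusted p = 0.00389) and by 0.54 in CC (SE 0.09, adjusted p = 0.00675). The E2f2 call was lost in CB without WT CB 1 (0.088), HOMO CB 2 (0.113) or HOMO CB 3 (0.0794), and in CC without WT CB 1 or 2, any of WT CC 1 to 3, HOMO CB 2 or 3 or HOMO CC 2 or 3 (0.0519 to 0.169). It was also lost without both WT libraries numbered 2 (0.0729 in CB and 0.0965 in CC) and with peak-table scaling (0.0859 and 0.0696). The Cdk2 call was lost in CB without WT CB 1 (0.121), WT CB 3 (0.0518), HOMO CB 2 (0.141) or HOMO CB 3 (0.0768), in CC without WT CC 2 (0.11), WT CC 3 (0.0525), HOMO CC 2 (0.156) or HOMO CC 3 (0.108), and in both without both WT libraries numbered 2 (0.0536 and 0.122). The Cdkn2a call held in CB in all 21 alternative settings and was lost in CC without HOMO CC 2 (0.0635).

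From CB to CC, 4 of the 168 peaks rose and 3 fell in WT (4.17%), and 4 rose and 2 fell in HOMO (3.57%), beside 5.43% and 7.22% of all peaks. The largest rises that recurred in both genotypes were at 2 adjoining sites inside Ambra1, which encodes the ubiquitin ligase adaptor that marks D cyclins for degradation. The first (chr2:91843986-91844486) went from 2.55 ± 0.229 to 6.82 ± 1.19 CPM in WT (1.39, SE 0.23, adjusted p = 0.00165) and from 2.57 ± 0.897 to 8.81 ± 1.18 in HOMO (1.69, SE 0.22, adjusted p = 0.000123). The second (chr2:91844761-91845261) rose by 1.41 (SE 0.26, adjusted p = 0.00324) and 1.83 (SE 0.25, adjusted p = 0.00018). The summed Ambra1 peaks passed in HOMO, at 0.50 (adjusted p = 0.00392), and missed the threshold in WT (0.30, SE 0.09, adjusted p = 0.0853). Of the Ambra1 calls 1 was lost, at the first site in WT without both WT libraries numbered 2 (adjusted p = 0.0531).

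Since all peaks have 1 length, the mean CPM per peak gives the order of the 8 genes over all libraries. Over the 12 libraries it was 59.9 ± 8.12 (SD) at Cdk4, 22.3 ± 2.23 at Cdkn2c, 20.8 ± 2.11 at Ccnd3, 18.5 ± 2.38 at Cdkn1b, 13.0 ± 0.619 at Cdk6, 11.6 ± 1.68 at Ccnd2, 8.66 ± 0.61 at Rb1 and 8.32 ± 1.65 at Ccnd1. Cdk4, with its promoter as the only peak, stood apart, and no library of another gene reached its lowest value of 45.5. Neighbours among Cdkn2c, Ccnd3 and Cdkn1b, Cdk6 and Ccnd2, and Rb1 and Ccnd1 differed by less than the larger of their SDs. The order of such neighbours turned between groups, as Cdkn2c stood above Ccnd3 in WT CB and below it in HOMO CB, and Ccnd1 below Rb1 in WT CB and above it in HOMO CC. A mean over peaks depends on how many weak distal peaks a gene has, so it does not rank promoters.

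Over the 12 libraries, which hold 4 group means, the 2 genes most like each member other than Rb1 in log2 CPM were found among 12076 genes. For Ccnd3 these were Prr12 (Pearson r 0.968) and Ccm2 (0.964), for Ccnd1 Lifr (0.97) and Ppl (0.948), for Ccnd2 1600014C23Rik (0.925) and Bpi (0.923), and for Cdk4 Smurf1 (0.962) and LOC114841036 (0.962). For Cdkn2c they were Smpd5 (0.98) and Abcg4 (0.978), for Cdkn1b Ebf4 (0.962) and Bach1 (0.932), and for Cdk6 Nsun4 (0.84) and Gfod1 (0.815). Among the members, Ccnd1 and Ccnd2 were the most alike pair (0.908), and Cdk4 and Cdkn2c the most opposed (-0.821), followed by Ccnd3 and Cdkn2c (-0.77). These values share libraries, depth and the group differences, and are a description.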

How the data were processed

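Omni-ATAC-seq was made from 12 libraries. The authors deposited raw read counts per peak for each library, on mm10. Of tools, the notes on processing list FastQC, R 4.2.1, BWA and deepTools, per the submitters' processing notes, with no roles. Peak caller, counting, duplicates, transposase offset and pooling of libraries: not given in the sources used here. Intervals and floors were not computed, and depth limits each value through its counts.

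Each peak was given to the nearest of 21896 protein-coding RefSeq spans (GRCm38.p6) within 50 kb, which placed 64043 peaks (93.2%) at 14353 genes. Counts were fitted with edgeR 4.0.16 under R 4.3.3 (TMM factors of 0.954 to 1.052, robust quasi-likelihood, 1 mean per group, two-sided), per peak and on counts summed per gene, with Benjamini-Hochberg adjustment over all peaks or all genes. The filter filterByExpr removed no peak. CPM use the TMM factors, those of summed genes from the gene table. The biological coefficient of variation was 0.142, and log2 fold changes had a median standard error of 0.2. Counts of 2 libraries of 1 group differed with a chi-square of 2.28 to 7.67 per degree of freedom, where counting noise gives about 1, so no libraries were merged as copies of 1 library. On simulated counts for 68689 peaks the CB contrast recovered 36% of 1.5-fold and 48% of 2-fold changes, and the CC contrast 22% and 64%.

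Libraries of the same number and genotype deviated together in CB and CC (correlation 0.206 to 0.518 in 6 pairs, against -0.343 to 0.125 in 12 pairs of other numbers), so the CC against CB results were also fitted with genotype and number as a replicate block. Across genotypes the same numbers gave -0.011 to 0.399 within a population, against -0.305 to 0.18 for other numbers. Between populations they gave 0.007 to 0.317, against -0.249 to 0.144. These libraries were not taken as pairs in the main results, and the cause of their likeness was not tested. Genotype results with the number as a block are given at the end.

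Peaks were described one by one when called in a comparison, when the most accessible of their gene at its start or end or elsewhere, or when among the 3 of smallest p in a comparison. The members and gene lists were chosen with earlier results of these data known. Alternatives were other size factors, count filters, DESeq2 1.42.0, total counts as a covariate, the replicate block, a shorter assignment distance, and leaving out libraries. Scaling summed genes by the peak table was added after the data were seen. Python 3.11.15, numpy 2.4.6, pandas 2.3.3 and matplotlib 3.10.9 were used. The genes most like Rb1 are not reported here.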

Additional observations from a re-analysis of the deposited data

How the results depend on the processing

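Of 1159 values of 56 single results under alternative settings, 1017 kept their direction and their side of the threshold, 103 lost the call, 22 gained one and 17 changed sign. Those that changed sign were uncalled values near 0, and leaving out 1 library at a time moved Cdkn2c from CB to CC between -0.0 and 0.06 in WT and -0.06 and 0.09 in HOMO, Cdk6 between genotypes between -0.03 and 0.07 in CB and -0.0 and 0.07 in CC, Cdk6 from CB to CC between -0.06 and 0.03 in WT and -0.06 and 0.04 in HOMO, Cdk4 from CB to CC in WT between -0.0 and 0.23, and Rb1 in HOMO between -0.1 and 0.01. In other settings Cdkn2c from CB to CC gave -0.02 in WT without both WT libraries numbered 2 and -0.03 there with peak-table scaling, and in HOMO -0.01 with library size as a covariate and -0.02 without both HOMO libraries numbered 1. Cdk6 between genotypes in CB gave -0.04 with peak-table scaling.

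With library size as a covariate, 12 member peaks were called between genotypes in CB (4 without it), 12 in CC (5), 8 from CB to CC in WT (1) and 14 in HOMO (3), and 5 summed genes in CB (3) and 4 in CC (1). With a replicate block the peaks called were 11 in CB (7 higher, 4 lower), 13 in CC (7 higher, 6 lower), 22 from CB to CC in WT and 18 in HOMO, and the summed genes were 5 in CB (3 higher, 2 lower), 5 in CC (3 higher, 2 lower) and 4 from CB to CC in HOMO (3 higher, 1 lower). Across genotypes the numbers were not taken as pairs, although the same numbers tended to deviate together there too. The block called 13.2% of all peaks in CB and 10.4% in CC, beside 12.8% and 15.1% of the members. From CB to CC it called 22.1% of all peaks in WT and 22.2% in HOMO, beside 25.6% and 20.9% of the members. Shares over all peaks or genes in the other settings are not given here. The counts in this paragraph therefore describe how calls depend on the settings and are no result about these genes. Without both HOMO libraries numbered 1, the peaks called were 8 in CC and 3 from CB to CC in WT, and the summed genes 2 in CC. Without both WT libraries numbered 2 they were 0 peaks in CC, and 1 summed gene in CB, 0 in CC and 1 from CB to CC in WT. DESeq2 called 3 peaks from CB to CC in WT, and peak-table scaling 1 summed gene there. Leaving out 1 library at a time gave 0 to 5 peaks in CB, 0 to 8 in CC, 0 to 4 from CB to CC in WT and 1 to 4 in HOMO, and 1 to 4, 0 to 2, 1 to 2 and 1 to 2 summed genes. Apart from fewer libraries in those fits, the cause was not tested. Depth limits the weakest peaks, where a library held down to 0 counts.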
